A study of Rattus norvegicus with 6 samples.

Results

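The immediate early genes Fos, Fosb, Junb, Egr1, Egr2, Arc, Nr4a1, Npas4 and Dusp1 were followed in 6 brain RNA-seq libraries of rats. They were chosen as a set by Ensembl ID: Fos is ENSRNOG00000008015, Fosb ENSRNOG00000046667, Junb ENSRNOG00000042838, Egr1 ENSRNOG00000019422, Egr2 ENSRNOG00000000640, Arc ENSRNOG00000043465, Nr4a1 ENSRNOG00000007607, Npas4 ENSRNOG00000020009 and Dusp1 ENSRNOG00000003977. All 9 were in the table of 22250 genes, and all 9 passed the expression filter that kept 13155 genes. Their symbols come with the list of IDs; the count table and the reference tables pair no ID with a symbol, so the pairing was not checked here. Of the libraries, 3 came from rats with experimental autoimmune prostatitis (EAP), a model of chronic prostatitis raised by immunising the animals with rat prostate protein mixed into Freund's adjuvant, and 3 from rats labelled normal. The tissue is given only as brain, for both groups. The sources used here do not state the strain, age, brain region, time after immunisation, any sham injection of normal rats, how brains were collected, or how many animals a library represents. P-values therefore measure the spread between these libraries, which may be technical. Markers of brain cell types were not analysed here, because the IDs carry no symbols.

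Immediate early genes are transcribed within minutes of a stimulus, without the need for new protein, and their messages decay quickly. In neurons, calcium entry and kinase signalling reach the promoters through the factors CREB, which binds the cyclic AMP response element (CRE), and SRF, which binds the CArG box. Fos, Fosb and Junb encode subunits of the AP-1 transcription factor, Egr1 and Egr2 zinc finger transcription factors, and Nr4a1 an orphan nuclear receptor. Dusp1 encodes a phosphatase that switches off MAP kinases. These 7 are induced in many cell types, whereas Arc, a regulator of AMPA receptor trafficking at synapses, and Npas4, an activity-dependent transcription factor, are induced chiefly in neurons. In bulk tissue, fewer responding cells and less RNA per cell cannot be told apart.

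The promoters of 4 genes whose levels moved together between libraries are shown as examples. They were picked because each holds a match to a response element of this class of gene. Egr1 also held matches but is not printed, and Fosb and Npas4 held none. Promoter windows of RefSeq (build GRCr8), from 250 bases before to 50 bases after the annotated start, were matched by symbol for 7 of the 9 genes; Fos and Arc had no entry. The 250 bases before the start are printed from 5′ to 3′ on the gene's strand. Capitals mark the CRE core TGACG, on either strand (CGTCA on the strand shown), the full CRE TGACGTCA, which holds the core on both strands, and the CArG box.
Junb, chr19:40080876-40081125, plus strand: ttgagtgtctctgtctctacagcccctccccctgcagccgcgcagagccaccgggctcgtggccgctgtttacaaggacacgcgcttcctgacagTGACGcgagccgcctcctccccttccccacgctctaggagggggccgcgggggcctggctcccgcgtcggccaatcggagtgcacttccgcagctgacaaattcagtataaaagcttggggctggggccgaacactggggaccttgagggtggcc
Egr2, chr20:21054442-21054691, minus strand: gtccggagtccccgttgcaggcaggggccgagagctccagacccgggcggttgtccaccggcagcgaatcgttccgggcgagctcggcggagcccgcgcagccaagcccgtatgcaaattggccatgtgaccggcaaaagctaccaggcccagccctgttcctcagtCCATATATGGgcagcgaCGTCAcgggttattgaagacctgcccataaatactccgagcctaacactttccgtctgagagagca
Nr4a1, chr7:134259888-134260137, plus strand: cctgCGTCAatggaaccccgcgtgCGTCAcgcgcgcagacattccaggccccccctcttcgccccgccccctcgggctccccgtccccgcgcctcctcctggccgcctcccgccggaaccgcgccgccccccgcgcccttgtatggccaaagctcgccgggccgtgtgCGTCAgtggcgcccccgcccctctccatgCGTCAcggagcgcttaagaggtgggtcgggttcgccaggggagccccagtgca
Dusp1, chr10:17184603-17184852, plus strand: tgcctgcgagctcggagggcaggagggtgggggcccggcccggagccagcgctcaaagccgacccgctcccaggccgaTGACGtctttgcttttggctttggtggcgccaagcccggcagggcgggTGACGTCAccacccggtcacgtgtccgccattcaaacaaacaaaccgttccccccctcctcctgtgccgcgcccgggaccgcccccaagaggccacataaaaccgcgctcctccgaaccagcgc

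The CRE core was found in 5 of the 7 windows, against 21.2% of all 33469 promoter windows of 300 bases. Nr4a1 held 4 copies, Dusp1 held 3 including those in its full CRE, Egr1 held 2, and Junb and Egr2 held 1 each. The full CRE stood in the Dusp1 window alone of the 7, against 1.83% of all windows. The CArG box stood in the windows of Egr1 (2 copies) and Egr2 (1 copy), against 1.64% of all windows. In Egr2 the CArG box began 83 bases and the CRE core 66 bases before the start. The Egr site GCGNGGGCG was in the Nr4a1 window (4.98% of all windows), the TATA box TATAAA in that of Junb (8.8%), and the AP-1 site TGANTCA in none of the 7 (7.33%), with the TATA box searched on the gene's strand and the others on both. The windows of Fosb and Npas4 held none of these letters. A match is a description of the sequence, not evidence of binding, and no match says nothing of the factor.

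Libraries held 12534210 to 14669760 counts, and a floor of 3 counts corresponded to 0.205 to 0.235 CPM (counts scaled to library size, here with TMM factors), so each of the 9 genes lay above the floor in all 6 libraries. EAP replicate 1 and normal replicate 2 stood apart from the other libraries of their own groups in most of these genes. Together the 9 genes took 1.09% of all counts in EAP replicate 1 but 0.0613% and 0.081% in EAP replicates 2 and 3. In the normal group they took 0.812% in replicate 2 but 0.162% and 0.142% in replicates 1 and 3. The high library was thus replicate 1 in EAP and replicate 2 in normal. Comparisons between groups are given below with and without these libraries.

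The AP-1 genes spread widely between libraries of the same group. Fos was at 1068, 39.2 and 86.8 CPM in EAP replicates 1 to 3 and at 124, 1636 and 76.9 CPM in normal replicates 1 to 3. Fosb was at 1406, 11.9 and 46.2 CPM in EAP and at 47.3, 1598 and 38.0 CPM in normal replicates 1 to 3. In both genes normal replicate 2 was the highest library and EAP replicate 1 the next, while the other 4 libraries lay far below and the groups overlapped. The difference between the highest and lowest library of a group was 119-fold in EAP and 42.0-fold in normal for Fosb, and 27.2-fold and 21.3-fold for Fos. Junb, the AP-1 partner in this set, was at 1924, 129 and 95.1 CPM in EAP and at 242, 938 and 184 CPM in normal replicates 1 to 3. Here EAP replicate 1 was the highest, at 2.05 times the level of normal replicate 2.

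The zinc finger factors and the nuclear receptor followed Junb rather than Fos in the order of the 2 high libraries. Egr1 was at 2910, 80.7 and 169 CPM in EAP replicates 1 to 3 and at 445, 1419 and 323 CPM in normal replicates 1 to 3. Egr2 was at 131, 3.34 and 6.91 CPM in EAP and at 12.5, 45.5 and 8.94 CPM in normal replicates 1 to 3. Nr4a1 was at 2327, 66.3 and 110 CPM in EAP and at 322, 1040 and 292 CPM in normal replicates 1 to 3. In each of these 3 genes EAP replicate 1 was highest, normal replicate 2 next, then normal replicates 1 and 3, with EAP replicates 3 and 2 at the bottom. EAP replicate 1 exceeded normal replicate 2 by 2.05-fold in Egr1, 2.87-fold in Egr2 and 2.24-fold in Nr4a1, whereas it stood at 65.3% of normal replicate 2 in Fos and 88.0% in Fosb. With 1 library on each side, these ratios have no replicate check.

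Dusp1, the MAP kinase phosphatase, moved over a narrower range. It was at 968, 271 and 267 CPM in EAP replicates 1 to 3 and at 524, 1423 and 492 CPM in normal replicates 1 to 3. The same 2 libraries were high, with normal replicate 2 the highest, and in each group the remaining 2 libraries lay close together.

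**Figure D1:**
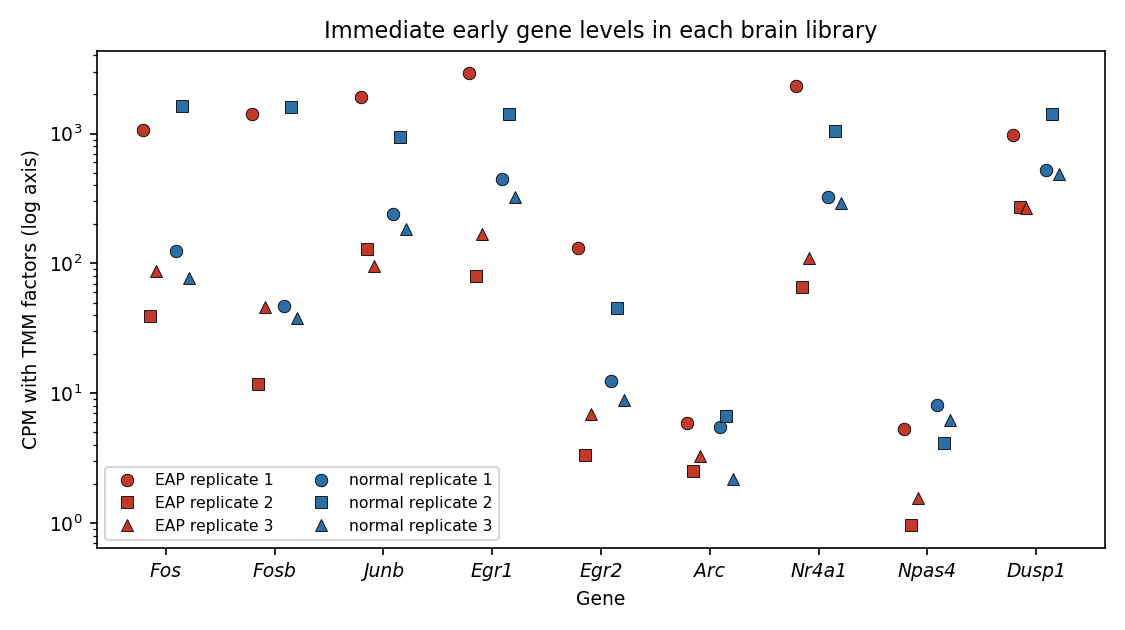
CPM (log axis) of each gene in each library; each point is 1 library, coloured by group and shaped by replicate number. EAP replicate 1 and normal replicate 2 are the 2 highest libraries in every gene but Npas4, where normal replicates 1 and 3 lie above both.

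Arc and Npas4, the genes induced chiefly in neurons, had few counts and a narrower range within groups than Fos, Fosb, Junb, Egr1, Egr2 and Nr4a1. Arc had 76, 34 and 44 counts in EAP replicates 1 to 3 and 70, 90 and 32 counts in normal replicates 1 to 3, or 5.95, 2.52 and 3.27 CPM and 5.47, 6.65 and 2.18 CPM. Normal replicate 2 and EAP replicate 1 were again the 2 highest libraries, but normal replicate 1 lay next to them, and the whole range was 2.36-fold in EAP and 3.04-fold in normal. Npas4 had 68, 13 and 21 counts in EAP and 104, 56 and 91 counts in normal replicates 1 to 3, or 5.32, 0.964 and 1.56 CPM and 8.13, 4.14 and 6.21 CPM. Normal replicate 2, which was first or next to first in the other 8 genes, was the lowest normal library for Npas4, at 0.509 and 0.666 times the levels of normal replicates 1 and 3. EAP replicate 1 remained the highest EAP library. With few counts these values are less precise: the 95% Poisson interval, which covers counting error only, ran from 6.92 to 22.2 for the 13 counts of Npas4 in EAP replicate 2 and from 42.3 to 72.7 for the 56 counts in normal replicate 2.

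The spread within groups was wide beside that of other genes. The median ratio of the highest to the lowest library, on log2 CPM with a prior count of 2, was 27.1-fold in EAP and 4.39-fold in normal over the 9 genes, against 1.25-fold and 1.27-fold over all 13155 genes tested. By this range within EAP, Fosb ranked 4, Egr2 7, Egr1 8, Nr4a1 9, Fos 11 and Junb 18 of the 13155 genes. Npas4 ranked 158, Dusp1 274 and Arc 919 there. Within normal, Fosb ranked 5 and Fos 14, and the others lay lower. Junb ranked 118, Egr2 123, Egr1 161, Nr4a1 277, Arc 491, Dusp1 498 and Npas4 1508. EAP replicate 1 was at least 2-fold above each of the other EAP libraries in 8 of the 9 genes (all but Arc), against 1.73% of all genes. Normal replicate 2 was at least 2-fold above each of the other normal libraries in 7 of the 9 (all but Arc and Npas4), against 0.654% of all genes. Both held for these 7 genes and for 28 genes, 0.213%, of the 13155 genes tested. No other library was at least 2-fold above both others of its group in any of the 9 genes, against 0.464% and 0.479% of all genes for EAP replicates 2 and 3 and 0.798% and 0.692% for normal replicates 1 and 3. EAP replicate 1 and normal replicate 2 were the 2 highest of the 6 libraries in 8 of the 9 genes, against 6.08% of all genes. EAP replicate 2 was at least 2-fold below both other EAP libraries in Fos, Fosb, Egr1 and Egr2, against 1.07% of all genes, and normal replicate 3 below both other normal libraries in Arc, against 0.813% of all genes. These thresholds were chosen after the values were seen. EAP replicate 1 and normal replicate 2 were singled out for their levels of these same 9 genes. The counts for those libraries therefore describe the pattern and are no test of it.

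**Figure D2:**
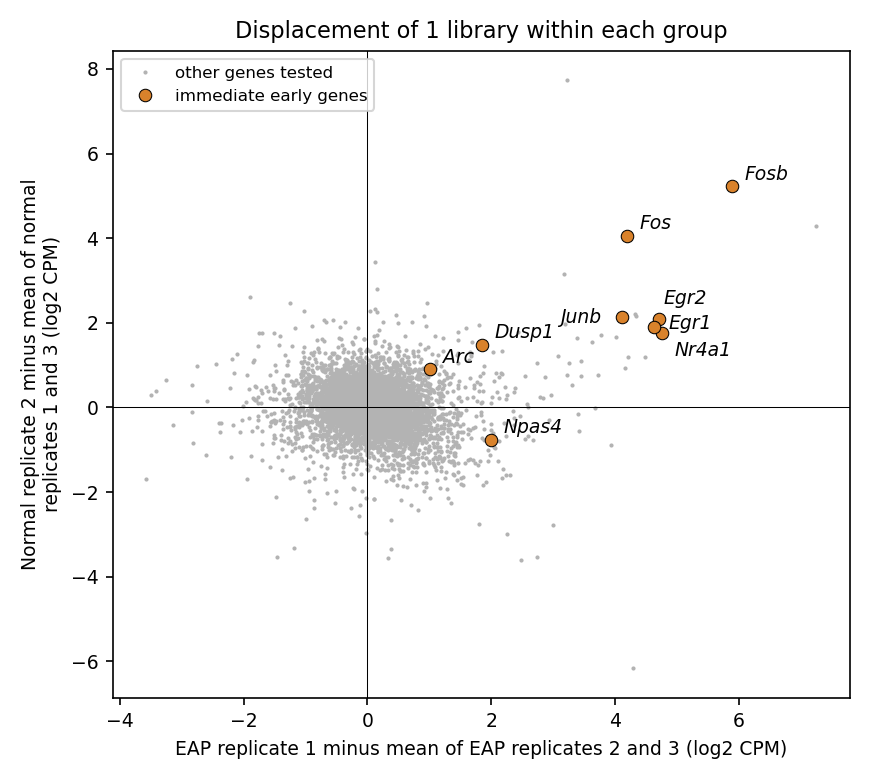
Log2 CPM of EAP replicate 1 minus the mean of EAP replicates 2 and 3 (x) against normal replicate 2 minus the mean of normal replicates 1 and 3 (y); grey points are the other genes tested, orange points the 9 genes. Fosb lies at 5.90 and 5.23 and Fos at 4.19 and 4.06, while Npas4 lies at 1.99 and -0.76, the only one of the 9 below 0 on the y axis.

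By likeness to Fos, measured as Pearson r of log2 CPM over the 6 libraries, Fosb was the closest of the 13154 other genes (r = 0.994). Dusp1 ranked 26 (r = 0.939), Egr2 34 (r = 0.936), Egr1 35 (r = 0.932), Junb 42 (r = 0.926) and Nr4a1 58 (r = 0.915). Arc ranked 158 (r = 0.847), and Npas4 ranked 2084 (r = 0.438). Normal replicate 2 and EAP replicate 1 are the libraries farthest from the median of Fos; without them, over 4 libraries, r was 0.944 for Fosb, 0.957 for Egr2, 0.896 for Egr1, 0.797 for Nr4a1, 0.769 for Npas4, 0.72 for Arc, 0.634 for Dusp1 and 0.472 for Junb. The closest genes outside the set were ENSRNOG00000025071 (r = 0.988) and ENSRNOG00000026293 (r = 0.985). ENSRNOG00000026293 was at 1062, 476 and 485 CPM in EAP replicates 1 to 3 and at 602, 1350 and 535 CPM in normal replicates 1 to 3, high in the same 2 libraries. ENSRNOG00000025071 followed the pattern within a narrow range of 72.7 to 83.1 CPM, and with total-count scaling it ranked 154 (r = 0.84). These r values describe 6 shared libraries and carry no p.

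Whether EAP changed immediate early gene levels in the brain was tested across all genes in all 6 libraries. None of the 9 genes passed (edgeR quasi-likelihood test, Benjamini-Hochberg adjusted over 13155 genes, threshold 0.05), against 4 genes or 0.0304% of all genes tested, and none had an unadjusted p under 0.05, against 11.1% of all genes. Adjusted p ran from 0.488 for Npas4 to 0.987 for Fosb. In all 9 the groups overlapped, against 16.8% of genes whose groups did not. Mean levels of Fos were 398 ± 581 CPM in EAP libraries and 612 ± 887 CPM in normal libraries (SD, n = 3 each), a log2 difference of -0.62 with a standard error (SE) of 1.91. The 95% interval ran from -5.83 to 4.59, so this design bounds a change of Fos only very loosely in either direction. The intervals of Fosb, Junb, Egr1, Egr2 and Nr4a1 were wide too, with log2 differences between -0.20 and 1.07 and SEs of 1.53 to 2.44.

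The narrower ranges of Dusp1, Arc and Npas4 gave tighter bounds. Dusp1 averaged 502 ± 403 CPM in EAP libraries and 813 ± 528 CPM in normal ones (SD, n = 3 each), a log2 difference of -0.70 (95% interval -2.73 to 1.33). Arc averaged 3.91 ± 1.80 CPM in EAP libraries and 4.77 ± 2.32 CPM in normal ones (SD, n = 3 each), a log2 difference of -0.28 (95% interval -1.33 to 0.76). Npas4 averaged 2.62 ± 2.37 CPM in EAP libraries and 6.16 ± 2.0 CPM in normal ones (SD, n = 3 each). Its log2 difference was -1.24 (SE 0.60, 95% interval -2.64 to 0.16), with an unadjusted edgeR p of 0.0757 and an adjusted p of 0.488. Exact permutation tests of the difference of mean log2 CPM, two-sided, gave p = 0.2 for Npas4 and 0.5 to 0.9 for the other 8 genes. With 3 against 3 libraries they cannot go below 0.1. A difference of mean log2 CPM need not share the direction of the edgeR difference. DESeq2 gave no p for Fos, Fosb, Junb, Egr1, Egr2 and Nr4a1, which it set aside as count outliers. They were 6 of only 16 such genes (0.122%) among the 13155 that passed the expression filter. Of the 3 that DESeq2 tested, none passed (170 genes or 1.29% of all genes did). Npas4 had an unadjusted DESeq2 p of 0.0214 (adjusted p = 0.334), against 10.6% of genes at an unadjusted p under 0.05.

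The direction of the fitted difference depended on single libraries in 7 of the 9 genes. Without EAP replicate 1, the log2 difference of Junb went from 0.65 to -2.02, Egr1 from 0.53 to -2.54, Egr2 from 1.07 to -2.12 and Nr4a1 from 0.60 to -2.64. Without normal replicate 2, Fos went from -0.62 to 1.98, Fosb from -0.20 to 3.51 and Arc from -0.28 to 0.03. Fosb also turned positive without EAP replicate 2 (0.37) or EAP replicate 3 (0.34). Npas4 stayed lower in EAP whichever library was left out, at -2.28 to -0.84, as did Dusp1, at -1.59 to -0.02. None of the 9 passed the threshold with any 1 library left out (adjusted p at least 0.107).

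**Figure D3:**
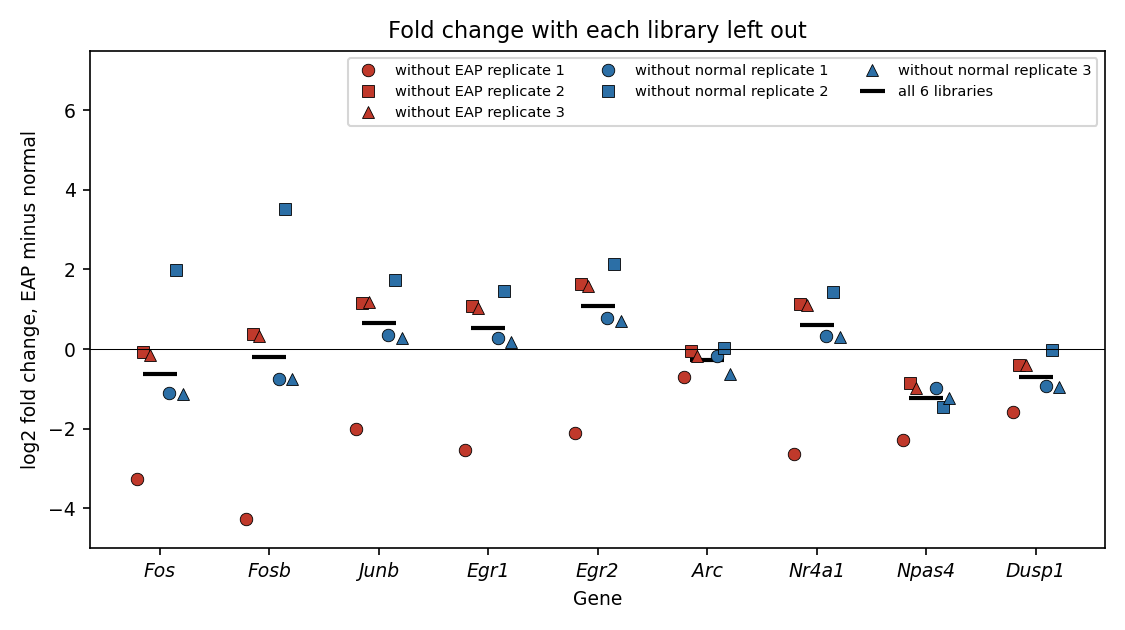
Log2 fold change of EAP minus normal for each gene from all 6 libraries (black bar) and with 1 library left out (points, by the library left out). Leaving out EAP replicate 1 gives the lowest value in all 9 genes, from -0.71 for Arc to -4.27 for Fosb, and leaving out normal replicate 2 the highest in every gene but Npas4.

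With both high libraries left out, all 9 genes had lower fitted levels in EAP, against 48.3% of the 13234 genes then tested, and 3 of the 9 fell past the threshold, against 2.15% of all genes. The 2 libraries were left out because of their levels of these very genes, and 2 libraries a group remain. These values therefore show how the result depends on those libraries and are no independent test of EAP. The 9 genes were read in the same libraries and most of them varied together, so their agreement is not 9 separate observations. Nr4a1 was at 87.7 ± 30.9 CPM in EAP libraries and 305 ± 20.2 CPM in normal ones (SD, n = 2 each) and fell by 1.80 on the log2 scale (SE 0.25, edgeR adjusted p = 0.0208). Npas4 was at 1.25 ± 0.421 CPM in EAP libraries and 7.13 ± 1.32 CPM in normal ones (SD, n = 2 each) and fell by 2.50 (SE 0.39, edgeR adjusted p = 0.0149). Dusp1 was at 267 ± 2.34 CPM in EAP libraries and 505 ± 20.0 CPM in normal ones (SD, n = 2 each) and fell by 0.92 (SE 0.14, edgeR adjusted p = 0.0118). In all 3 genes both EAP libraries lay below both normal libraries. Exact permutation tests on these 4 libraries gave p = 0.333 for each, as for Junb, Egr1 and Egr2, and higher p for Fos, Fosb and Arc. With 2 against 2 libraries they cannot go below 0.333.

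Junb, Egr1 and Egr2 also had both EAP libraries below both normal libraries, which makes 6 of 9 genes without overlap, against 23.3% of all genes lower in EAP in this way. Their log2 differences were -0.93 (SE 0.19, edgeR adjusted p = 0.0569), -1.62 (SE 0.43, adjusted p = 0.209) and -1.06 (SE 0.37, adjusted p = 0.216), short of the edgeR threshold. DESeq2 on the same 4 libraries called Junb as well as Nr4a1, Npas4 and Dusp1, against 3.5% of all genes lower in EAP by that tool. Fos (-0.67), Fosb (-0.55) and Arc (-0.39) did not pass, and their groups overlapped. Whether Fos differs from Nr4a1 in this respect was not tested.

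With 1 more library removed, 1 group holds a single library, whose spread is taken from the other group. Nr4a1 then missed the threshold without normal replicate 1 (log2 difference -1.74, edgeR adjusted p = 0.164) or normal replicate 3 (-1.87, adjusted p = 0.114), at folds close to that from 4 libraries. Npas4 missed it without normal replicate 1 (-2.30, edgeR adjusted p = 0.0559). The log2 difference of Dusp1 ran from -0.96 to -0.88 over the 4 cases. The libraries compared were kept because of their levels of these genes, and the single library has no spread of its own. The values above and the counts below therefore show dependence on single libraries. They are no test of EAP and no check of the result from 4 libraries. Without EAP replicate 2, 5 of the 9 genes fell past the threshold (Junb, Egr1, Nr4a1, Npas4 and Dusp1), against 2.09% of all genes. Without EAP replicate 3 there were 6 (Fosb, Egr1, Egr2, Nr4a1, Npas4 and Dusp1), against 2.24%. Without normal replicate 1 there was 1 (Dusp1), against 1.99%, and without normal replicate 3 there were 3 (Junb, Npas4 and Dusp1), against 3.29%.

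**Figure D4:**
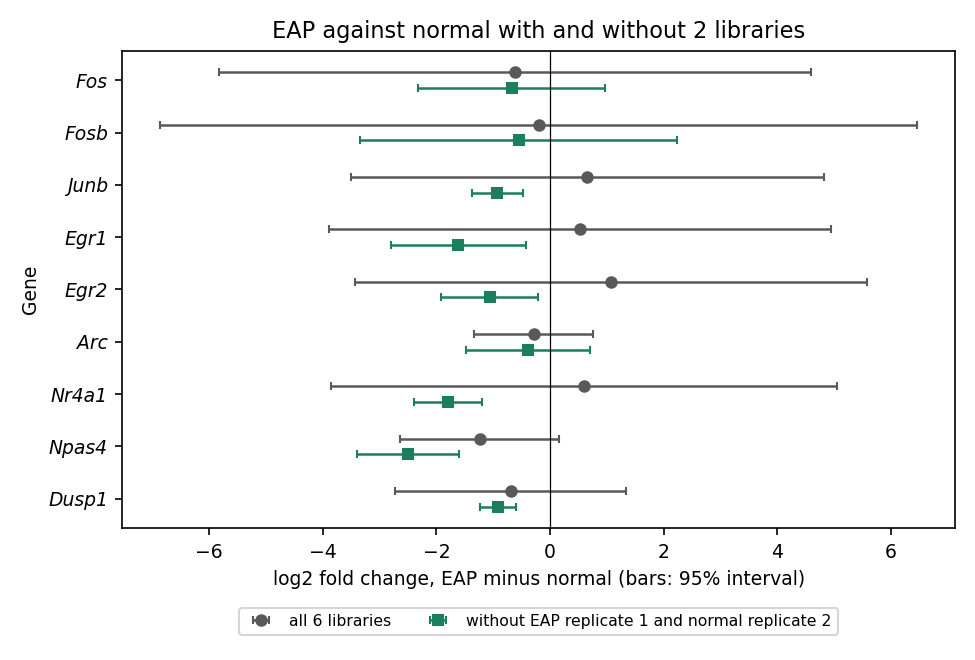
Log2 fold change of EAP minus normal with its 95% interval, from all 6 libraries (grey circles) and without EAP replicate 1 and normal replicate 2 (green squares). Every grey interval spans 0, and the green intervals of Junb, Egr1, Egr2, Nr4a1, Npas4 and Dusp1 lie below it, before adjustment over genes.

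EAP replicate 1 and normal replicate 2 each had the lowest total count of their group, at 12534210 against 13314793 and 13078670 in EAP, and 13514840 against 13654094 and 14669760 in normal. CPM values are scaled for these totals, whose part in the result was not tested. Their TMM factors lay inside the range of 0.937 to 1.03 set by the other libraries.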

How the data were processed

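Poly(A)-enriched RNA was sequenced in 6 libraries, 3 per group. The authors deposited raw read counts per Ensembl gene, per the file headers. Tools named without settings in the submitters' processing notes are featureCounts 2.0.3, HISAT2 2.2.1, Trimmomatic 0.39 and DESeq2 1.36.0, with Rnor_6.0 as the genome build; annotation release and strand use are not stated there. Each count column matched 1 library by name, leaving 0 further value columns.

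Counts were fitted across all genes with edgeR 4.0.16 in R 4.3.3 (quasi-likelihood with robust dispersions, a group term alone, TMM scaling, the filterByExpr filter, two-sided, Benjamini-Hochberg, threshold 0.05). The filter left out 0.0761% of counts. SE is the log2 difference divided by the root of F. Alternatives used DESeq2 1.42.0, limma 3.58.1 (voom), other scalings, filters and dispersions, the replicate block, and left-out libraries. The fits without both EAP replicate 1 and normal replicate 2 were added after the values were seen. The members and lists were chosen with earlier results of these data known. All 9 members are named, plus the 2 genes most like Fos. Lists of further activity-regulated genes and cell type markers, held by symbol, were not applied, for want of a table that links symbols to these IDs.

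Replicate numbers have no stated shared origin, and the samples were not treated as pairs. Exact permutation tests used the 20 assignments of 3 and 3 libraries or, without the 2 high libraries, every assignment of 2 and 2.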

Additional observations from a re-analysis of the deposited data

How the results depend on the processing

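The number of genes past the threshold in the whole table was 4 with edgeR and all 6 libraries. It was 170 with DESeq2, 1 with limma voom, 1 with total counts only and 7 with no filter. In edgeR it was 0 with non-robust dispersions, 0 with upper-quartile factors and 0 with the newer quasi-likelihood option; 1512, 1536 and 1484 genes, respectively, then had an unadjusted p under 0.05. Leaving out 1 library gave 0 to 47 genes: none when EAP replicate 2, EAP replicate 3 or normal replicate 3 was dropped (980, 1013 and 965 at an unadjusted p under 0.05), 14 without EAP replicate 1, 22 without normal replicate 2 and 47 without normal replicate 1. Separately, leaving out both EAP replicate 1 and normal replicate 2 gave 333. With the replicate block edgeR called 80 genes and none of the 9. Same-numbered libraries' deviations from their group means correlated at 0.0515 to 0.0718, and every library correlated best with its own number. These r values are small, the labels state no pairing, and whether the libraries are paired was not tested.

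No alternative on all 6 libraries, or with 1 left out, put any of the 9 genes past the threshold, though DESeq2 gave no p for 6 of them. Directions were less stable. Limma voom gave log2 differences below 0 for all 9 genes, from -1.56 for Npas4 to -0.21 for Arc, none past the threshold. Among them were Junb (-0.27), Egr1 (-0.78), Egr2 (-0.28) and Nr4a1 (-0.83), which edgeR put above 0. With the replicate block the values were 0.11 for Fosb, -0.49 for Junb, -0.84 for Egr1, -0.11 for Egr2 and -1.07 for Nr4a1. The cause was not tested. Leaving out both high libraries gave -0.93 for Junb, -1.62 for Egr1, -1.06 for Egr2 and -1.80 for Nr4a1. With 1 library left out the ranges were -3.28 to 1.98 for Fos, -4.27 to 3.51 for Fosb, -2.02 to 1.74 for Junb, -2.54 to 1.45 for Egr1, -2.12 to 2.13 for Egr2, -0.71 to 0.033 for Arc and -2.64 to 1.44 for Nr4a1. Among the 4 remaining libraries, the range with 1 more left out was -1.85 to 0.11 for Fosb and -0.91 to 0.39 for Arc, and no other of the 9 changed direction there. The count of 3 genes past the threshold in those 4 libraries was also 3 with limma voom (1.4% of all genes lower and past the threshold). It became 4, with Junb, under DESeq2 (3.5%), total counts only (2.06%), no filter (2.78%) and a filter at 1 CPM (2.25%). In the last 3 the edgeR adjusted p for Junb was 0.0363, 0.0113 and 0.0496. Those 4 libraries were kept because of their levels of these genes, so the counts show dependence on processing and are no test of EAP.

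With 3 libraries a group and this spread, the 6-library fit could not resolve even large changes of Fos, Fosb, Junb, Egr1, Egr2 or Nr4a1. Arc and Npas4 had smaller SEs in that fit (0.46 and 0.60), while their low counts limit the precision of each library's value.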
